A study of Mus musculus with 12 samples.

Results

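The genes described here are 10 members of the hypoxia-inducible factor (HIF) pathway, taken by symbol from a count table of 55487 genes in 12 whole mouse lungs: Hif1a, Epas1, Arnt, Egln1, Egln3, Vhl, Slc2a1, Bnip3, Pdk1 and Ankrd37. All 10 were found once in the table and passed the filter on low counts, which kept 45828 genes. The study asked how neonatal hyperoxia changes the lung transcriptome of mice without miR-30a, and whether females and males differ. Every lung came from a C57BL/6J mouse of the miR-30a-/- genotype, a global deletion that the room air controls carried too. The hyperoxia groups breathed 95% oxygen as pups, starting on postnatal day (PND) 1 and ending on PND 5. Lungs were taken on PND 21, so that none was sampled during the exposure. The 4 groups were room air females (animals 2, 5 and 6), hyperoxia females (2, 4 and 5), room air males (1, 4 and 5) and hyperoxia males (1, 2 and 3), with 3 lungs each, 1 per animal. Wild-type lungs were not analysed here.

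HIF is a transcription factor of an oxygen-labile alpha subunit, encoded by Hif1a or Epas1 (HIF-2 alpha), and the stable partner encoded by Arnt (HIF-1 beta). When oxygen is present, the prolyl hydroxylases encoded by Egln1 and Egln3 mark the alpha subunit, and the ubiquitin ligase adaptor encoded by Vhl sends it for degradation, so that the main control lies on the protein and not on the mRNA. When oxygen is low, HIF binds short DNA motifs with the core ACGTG or GCGTG near its targets, among them Slc2a1, Bnip3, Pdk1, Ankrd37 and Egln3 itself, and in the lung Epas1 is a well-known endothelial gene.

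The libraries held 8763033 to 16741694 counts per lung, and 3 counts corresponded to 0.191 to 0.327 CPM, the count scaled to a common library size. These totals include 1 gene, Gm10800, that held from 6.04% to 23.8% of the counts of a lung. Its part in the member values was not tested. Markers of the labelled tissue were present: 7 lung epithelial genes summed to between 7174 and 19829 CPM per lung and 6 endothelial genes to between 968 and 2024 CPM. Mir30a had 0 counts in all 12 lungs, with no wild-type lung here to set this against. The share of counts on 1768 olfactory and vomeronasal receptor genes, used here as a measure of reads that do not come from lung mRNA, ran from 0.435% to 1.00%, a 2.30-fold range, and 1 lung, room air male 1, held 1900 CPM of 8 skeletal muscle markers against 79.5 to 118 CPM in the other 11.

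The core motif was looked for in the promoters because HIF binds DNA at sites that hold it. RefSeq promoters (GRCm38.p6) were held for 9 of the 10 members, all but Epas1, with 10 start sites in all since Pdk1 had a second one. The 250 bases before each start were searched for ACGTG and GCGTG on both strands, and the palindrome CACGTG counts as a core on each strand. A core was present in 8 of the 10 promoters, against 38.6% of all 32851 RefSeq promoters and 51.5% of the 14988 promoters of genes with at least 10 CPM in at least 3 of these lungs. Bnip3 had 5 cores, Ankrd37 had 4, Hif1a had 3, Slc2a1 and Egln1 had 2 each, and Egln3, Pdk1 and Arnt had 1 each. None was found in the window of Vhl or of the second Pdk1 start. The Ankrd37 and Hif1a windows lie inside the GENCODE genes used for the counts, whose starts are farther upstream. The following stretches of 45 bases were chosen to show the densest cluster, in Bnip3, and single cores in another target, the 2 hydroxylases and a subunit. They lie before the gene in both RefSeq and GENCODE, read 5′ to 3′ on the gene's strand, and have the cores (or their reverse complements CACGT and CACGC) in capitals.
Bnip3 promoter, chr7:138909590-138909634, minus strand: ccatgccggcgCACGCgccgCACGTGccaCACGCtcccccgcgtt
Egln1 promoter, chr8:124949356-124949400, minus strand: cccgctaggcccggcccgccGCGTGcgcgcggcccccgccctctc
Egln3 promoter, chr12:54204079-54204123, minus strand: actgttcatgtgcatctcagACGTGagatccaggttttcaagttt
Pdk1 promoter, chr2:71873126-71873170, plus strand: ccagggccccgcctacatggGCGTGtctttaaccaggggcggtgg
Arnt promoter, chr3:95434341-95434385, plus strand: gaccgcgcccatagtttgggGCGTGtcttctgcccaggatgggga
The Bnip3 stretch spans bases 128 to 84 before the start and holds 4 of its 5 cores, 2 of them in 1 CACGTG. Of the other pathway genes listed below, 56 had a promoter entry and 36 of these (64.3%) held a core. A match describes the sequence only, since no binding was measured.

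Epas1 was by far the most abundant member (ENSMUSG00000024140, chromosome 17, 86753700 to 86833410 of mm10, plus strand). Levels are compared between genes as CPM per kilobase of exon, averaged over the 12 lungs. Epas1 stood at 290.1 ± 88.0 (SD), and its lowest lung, at 171, was still far above the highest lung of any other member. Hif1a followed at 11.9 ± 2.69, Arnt at 10.4 ± 2.10 and Egln1 at 9.26 ± 1.90, with overlapping ranges. Below them came Bnip3 at 6.60 ± 1.16, Slc2a1 at 6.12 ± 0.635 and Vhl at 6.04 ± 0.678 CPM per kilobase, which overlapped too. Pdk1 was lower at 4.10 ± 0.376, with no lung reaching the lowest Vhl value, and Egln3 (3.21 ± 1.00) and Ankrd37 (2.19 ± 0.328) were the least abundant. The ratio of Epas1 to Hif1a per kilobase ran from 17 to 30.7 over the 12 lungs. It did not differ detectably with exposure: log2 0.06 in females (exact permutation p = 0.800, two-sided, 3 against 3 lungs, where the smallest possible p is 0.100), 0.31 in males (exact p = 0.300) and 0.19 over both sexes (exact p = 0.242, 6 against 6), each with an adjusted p of at least 0.600 over the 6 ratio tests. Without hyperoxia female 2 the female value of this ratio turned to -0.12, and without room air male 1 the male value was 0.13. Counts behind these levels ran from 9840 to 36290 reads per lung for Epas1 and only from 27 to 55 for Ankrd37, so that the lower members carry more counting error.

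At PND 21 no member was called as changed by hyperoxia in females, in males or over both sexes. Calls needed a fold change over 1.5 and, by edgeR's quasi-likelihood test, a p under 0.05 after Benjamini-Hochberg adjustment over all genes tested. The background was itself near 0: in females 1 gene of 45828 was called (0.00218%), in males none (0%, with 2.7% of genes at an unadjusted p under 0.05), and over both sexes 19 genes (0.0415%). In simulated counts for the female comparison the same test found 84 of 100 genes changed 2-fold and 100 of 100 changed 4-fold, with 11 false calls. The genes changed there were drawn from those above the level of Ankrd37. Each gene had noise of its own, without variation shared across the genes of a lung, and no 1.5-fold change was simulated. For all 10 members the room air and hyperoxia lungs overlapped in females, in males and in the pooled comparison, where 17.2%, 6.62% and 0.214% of all genes tested did not overlap.

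**Figure D1:**
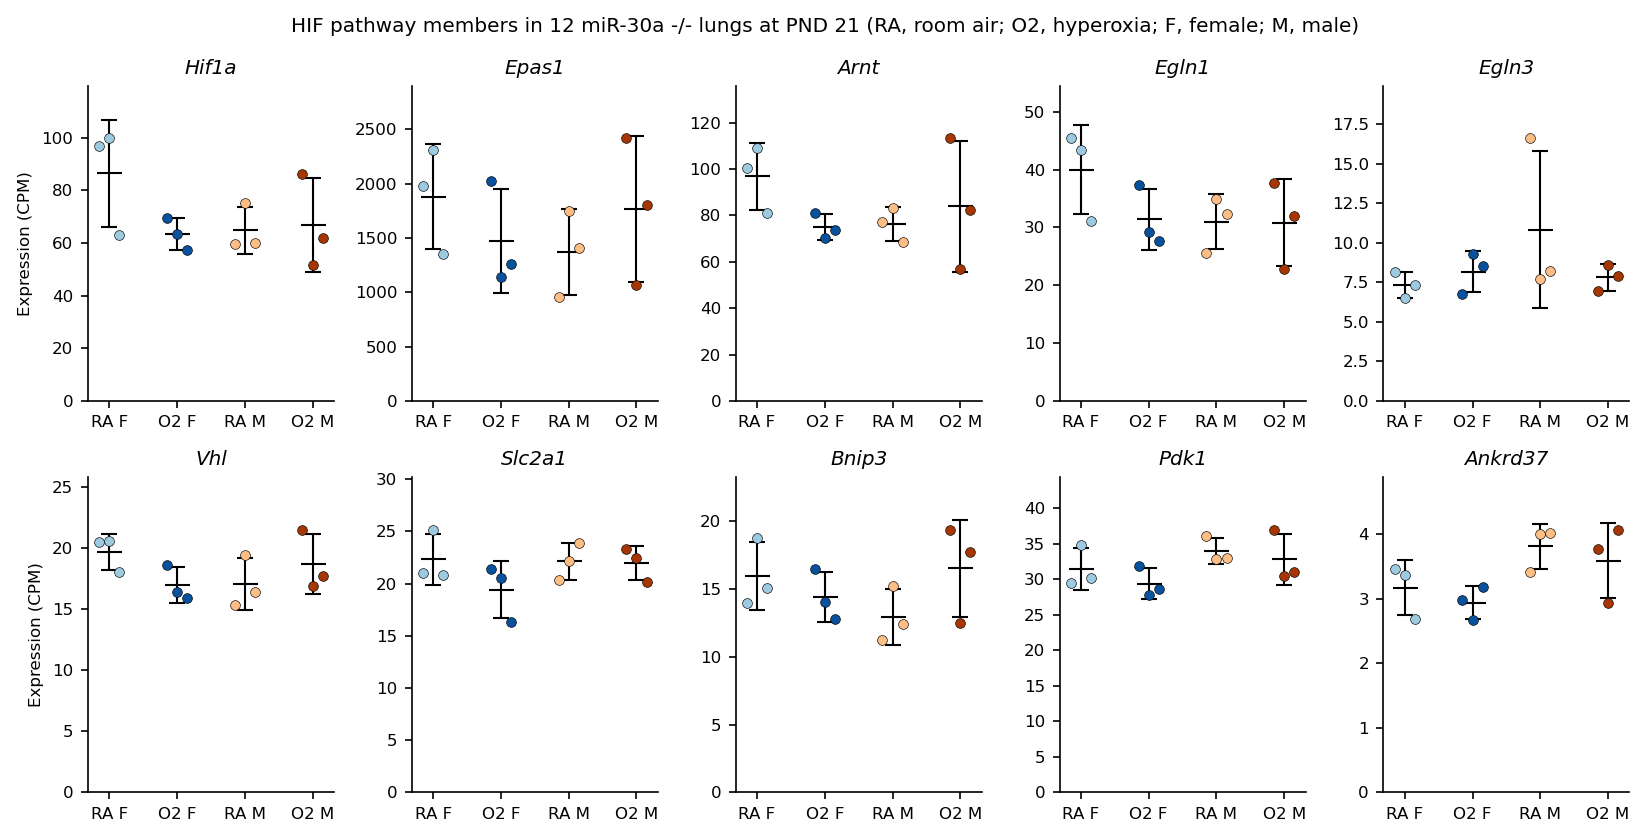
Expression in CPM (vertical axes, each from 0) of the 10 members in each of the 12 lungs, by group (RA, room air; O2, hyperoxia; F, females; M, males). Points are lungs, bars are the mean and SD of 3 lungs. Within each sex the room air and hyperoxia lungs overlap for every member, and 1 room air male lung stands apart for Egln3 at 16.6 CPM.

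Among the subunits, Hif1a had the lowest p in females (ENSMUSG00000021109, chromosome 12, 73901375 to 73947530, plus strand). Room air females had 96.7, 99.7 and 63.0 CPM (animals 2, 5 and 6), and hyperoxia females had 69.4, 63.3 and 57.2 CPM (animals 2, 4 and 5). Both higher values were room air lungs, but room air female 6 lay within the range of the exposed lungs. The log2 fold change was -0.45 (SE 0.21, 95% interval -0.88 to -0.02, unadjusted p = 0.0413, edgeR adjusted p = 0.389), and 12.6% of all genes had an unadjusted p under 0.05 in this comparison. In males the room air lungs held 59.5, 75.2 and 60.1 CPM (animals 1, 4 and 5) and the hyperoxia lungs 86.4, 51.6 and 62.1 CPM (animals 1, 2 and 3), a log2 difference of 0.04 (SE 0.21, 95% interval -0.39 to 0.47). The exposed males thus held both the highest and the lowest Hif1a level among males.

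Epas1 varied more between lungs of a group than any other subunit gene. Its levels were 1975, 2309 and 1354 CPM in room air females and 2024, 1139.8 and 1257 CPM in hyperoxia females. In room air males they were 958, 1746 and 1409.6 CPM, and in hyperoxia males 2415, 1071 and 1802 CPM. The ranges of all 4 groups overlapped. The log2 fold changes were -0.35 in females (SE 0.38, edgeR adjusted p = 0.656) and 0.36 in males (SE 0.38, adjusted p = 1.00), with intervals (-1.14 to 0.43 and -0.42 to 1.15) that reach past a 1.5-fold change in either sex. With 1 lung left out the female value ran from -0.66 (without hyperoxia female 2) to -0.18 (without room air female 5) and the male value from 0.07 (without hyperoxia male 1) to 0.63 (without hyperoxia male 2). In bulk lung fewer endothelial cells and less Epas1 RNA per cell cannot be told apart. Set against the geometric mean of the 6 endothelial markers, Epas1 was 8.79 ± 0.402 in room air females, 9.11 ± 1.65 in hyperoxia females, 8.14 ± 0.691 in room air males and 9.93 ± 0.932 in hyperoxia males (SD, n = 3), and 0 of the 6 endothelial markers was called in either sex.

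Arnt, the shared partner subunit (ENSMUSG00000015522, chromosome 3, 95434388 to 95497240, plus strand), gave 101, 109 and 80.9 CPM in room air females and 81.3, 70.3 and 73.7 CPM in hyperoxia females. Only the lung of room air female 6 fell among the exposed lungs, as for Hif1a. The female log2 fold change was -0.37 (SE 0.22, edgeR adjusted p = 0.437) and the male value 0.14 (SE 0.22, adjusted p = 1.00), where hyperoxia males spanned 56.7 to 113 CPM around room air males at 68.4 to 83.1 CPM.

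Of the oxygen-sensing genes, Egln1 (PHD2, ENSMUSG00000031987, chromosome 8, 124908587 to 124949324, minus strand) had its highest levels in room air females 2 and 5. Room air females had 45.4, 43.4 and 31.1 CPM, and hyperoxia females 37.3, 29.2 and 27.6 CPM. The difference was -0.35 in log2 (SE 0.18, 95% interval -0.73 to 0.03, edgeR adjusted p = 0.412). In males the 3 room air lungs (25.7 to 34.9 CPM) lay within the range of the 3 exposed lungs (22.7 to 37.7 CPM), and the interval of the log2 difference ran from -0.38 to 0.38. Vhl (ENSMUSG00000033933, chromosome 6, 113623959 to 113631633, plus strand) spanned 15.4 to 21.5 CPM over all 12 lungs, with log2 fold changes of -0.22 in females (SE 0.15) and 0.14 in males (SE 0.15), neither of which passed the test.

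Egln3 (PHD3, ENSMUSG00000035105, chromosome 12, 54178981 to 54203860, minus strand) was the member on which a single lung weighed most. Room air males had 16.6, 7.74 and 8.19 CPM (animals 1, 4 and 5), while hyperoxia males had 6.94, 8.60 and 7.90 CPM. Room air male 1 was the highest of all 12 lungs, and the other 11 lay between 6.49 and 9.27 CPM. The male log2 fold change was -0.48 with all lungs (SE 0.23, 95% interval -0.95 to -0.01, unadjusted p = 0.0461, edgeR adjusted p = 1.00) and -0.03 without room air male 1. That lung is the one with 1900 CPM of skeletal muscle markers, and the 3 genes whose levels followed Egln3 most closely over the 12 lungs were the muscle genes Mybpc1 (Pearson r = 0.97 of log2 CPM), Myh4 (0.96) and Neb (0.95). These r values include that lung, which is far from the other 11 in Egln3, and no r without it was computed. In females Egln3 was 8.13, 6.49 and 7.35 CPM in room air and 6.74, 9.27 and 8.51 CPM after hyperoxia, a log2 difference of 0.16 (SE 0.23, adjusted p = 0.750). The ratio of Egln1 to Egln3 per kilobase ran from 1.14, in room air male 1, to 4.95 and did not differ detectably with exposure in females (log2 -0.49, exact permutation p = 0.200) or males (0.36, exact p = 0.600), where 0.1 is the smallest p that 3 lungs against 3 can give. Without room air male 1 the male value of this ratio turned to -0.12. The female value ran from -0.76 (without hyperoxia female 2) to -0.34 (without room air female 5) with 1 lung left out.

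**Figure D2:**
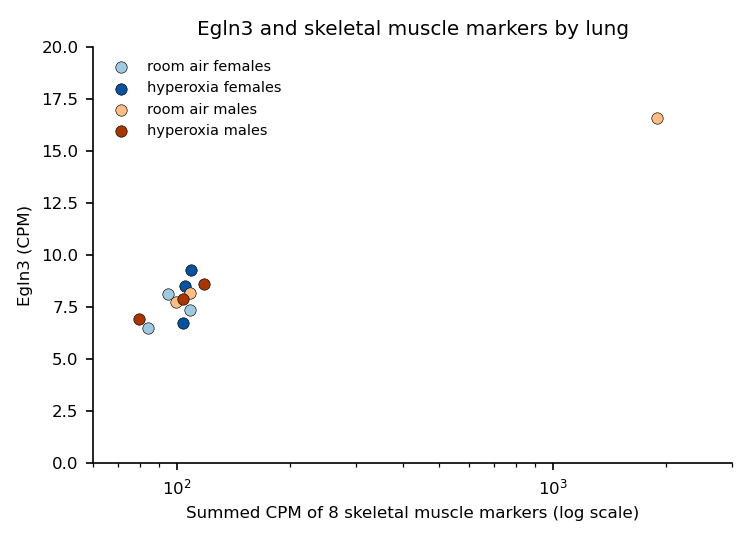
Egln3 in CPM (vertical axis) against the summed CPM of 8 skeletal muscle markers (horizontal axis, log scale), 1 point per lung, coloured by group. Room air male 1 sits alone at 1900 and 16.6 CPM, while the other 11 lungs lie at 79.5 to 118 and 6.49 to 9.27 CPM.

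The targets gave small differences. Bnip3, a mitochondrial protein that triggers mitophagy (ENSMUSG00000078566, chromosome 7, 138890836 to 138909519, minus strand), carries the 4 clustered cores shown above. It held 11.2, 15.2 and 12.4 CPM in room air males against 19.3, 12.5 and 17.7 CPM in hyperoxia males. Both highest male lungs were exposed, and hyperoxia male 2 lay within the room air range. The log2 difference was 0.36 (SE 0.17, 95% interval 0.01 to 0.72, unadjusted p = 0.0460, edgeR adjusted p = 1.00). Together with Egln3, Bnip3 made 2 of the 10 members with an unadjusted p under 0.05 in males. Its female levels were 13.9, 18.8 and 15.1 CPM in room air and 16.4, 14.0 and 12.8 CPM after hyperoxia (log2 -0.15, SE 0.17, adjusted p = 0.680).

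Slc2a1 encodes the glucose transporter GLUT1 (ENSMUSG00000028645, chromosome 4, 119108711 to 119137983, plus strand) and is found in endothelium and in developing red cells. It was 21.0, 25.1 and 20.9 CPM in room air females and 21.4, 20.5 and 16.3 CPM in hyperoxia females, and it kept to 20.2 to 23.8 CPM in all 6 male lungs. Hyperoxia female 5 was the lowest of the 12 lungs, and the groups overlapped. The log2 fold changes were -0.20 (SE 0.15, edgeR adjusted p = 0.504) and -0.01 (SE 0.15, adjusted p = 1.00). The 5 red cell markers summed to 5452 to 7881 CPM in room air females and 1247 to 2927 CPM in hyperoxia females, and to 5118 to 7331 against 2109 to 4650 CPM in males, and 3 of the 5 fell over both sexes by the rule above. The part of red cells in the Slc2a1 values was not tested, and the right heart had been perfused before the lungs were frozen.

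Pdk1, the kinase that restrains pyruvate dehydrogenase (ENSMUSG00000006494, chromosome 2, 71873224 to 71903858, plus strand), was the steadiest member, with a 1.33-fold range between 27.7 and 36.9 CPM over the 12 lungs. Its log2 fold changes were -0.10 in females (95% interval -0.40 to 0.20) and -0.05 in males (-0.35 to 0.25), intervals that stay inside a 1.5-fold change. Slc2a1 in both sexes, Arnt, Egln1, Hif1a and Vhl in males and Vhl, Slc2a1 and Bnip3 in females likewise had intervals inside 1.5-fold. Ankrd37, an ankyrin repeat gene used in many hypoxia signatures (ENSMUSG00000050914, chromosome 8, 45996902 to 46005707, minus strand), lay between 2.66 and 4.06 CPM, with log2 fold changes of -0.11 (SE 0.26) and -0.07 (SE 0.25). It overlaps Ufsp2 and Lrp2bp on the other strand, and the strand setting of the counting is not given in the sources used here, so its reads are uncertain.

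**Figure D3:**
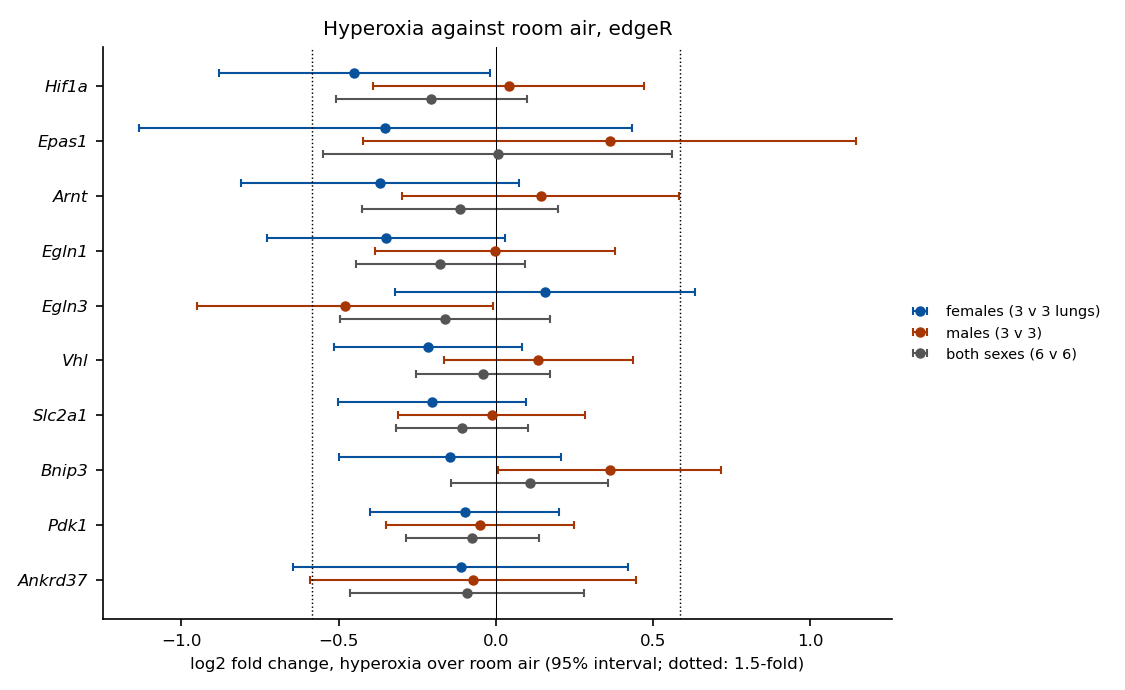
log2 fold change of hyperoxia over room air (horizontal axis) for the 10 members, with 95% intervals from edgeR, in females, in males and over both sexes. Dotted lines mark a 1.5-fold change. The female values of 9 members lie below 0, and the pooled values lie between -0.20 and 0.11.

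Over both sexes the member values ran from -0.20 for Hif1a to 0.11 for Bnip3, with edgeR adjusted p from 0.927 to 1.00 and 0 of 10 at an unadjusted p under 0.05, against 5.2% of all genes. With 1 lung left out Hif1a ran from -0.32 (without hyperoxia male 1) to -0.13 (without hyperoxia male 2) and Bnip3 from 0.05 to 0.19 (without the same lungs). The female and male effects were compared by an interaction term, female minus male. It was -0.71 for Epas1 (SE 0.54), -0.51 for Arnt (SE 0.30), -0.51 for Bnip3 (SE 0.24), -0.49 for Hif1a (SE 0.30) and 0.64 for Egln3 (SE 0.33), and 0 of 10 members was called (0% of all genes). With 1 lung left out Egln3 dropped to 0.19 (without room air male 1), and without hyperoxia male 1 Epas1 was at -0.42, Arnt at -0.24 and Hif1a at -0.27. With the receptor share in the model Epas1 and Hif1a changed sign, to 0.10 and 0.06, while Bnip3 was at -0.13 and Arnt at -0.01. Bnip3 alone had an unadjusted p under 0.05 (edgeR adjusted p = 0.578), as had 8.46% of all genes. Females and males averaged over exposure differed by -0.28 (Ankrd37) to 0.20 (Egln1) in log2, with adjusted p from 0.913 to 0.984, where 1.22% of genes were called.

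In females 9 of the 10 members had a log2 fold change below 0 (median -0.21), but so had 68.3% of the 15722 genes with at least 10 CPM in at least 3 lungs (median -0.15), against 39.0% of all genes tested (median 0.11). Under a filter at 10 CPM the median of the 15722 genes moved to 0.10 and 4 of the 8 members left were below 0. Hif1a then stood at -0.18 and Epas1 at -0.09. When the receptor share entered the model 4 of 10 members were below 0, with a member median of 0.0074. In males 5 of 10 were below 0 (median 0.02). One further setting bore on the subunits. With 1 factor of unwanted variation (RUVr), 4 of 10 members had an edgeR adjusted p under 0.05 in females, namely Hif1a (log2 -0.43, adjusted p = 3.98e-05), Arnt (-0.36, adjusted p = 0.000897), Egln1 (-0.34, adjusted p = 0.00510) and Epas1 (-0.35, adjusted p = 0.0186). All 4 stayed under 1.5-fold, and 16.7% of all genes then passed that threshold. With that factor the interaction of Epas1, which the receptor share covariate turned to 0.10, was called (log2 -0.68, adjusted p = 0.00319), and Hif1a (adjusted p = 0.00454) and Arnt (adjusted p = 0.00504) passed on the p alone, as did 11.7% of all genes. Over both sexes Hif1a alone did so (log2 -0.20, adjusted p = 0.0176), beside 4.51% of all genes.

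The levels of the more abundant members followed the receptor share of the library. Hif1a ranged from 99.7 CPM in room air female 5, the lung with the lowest share (0.435%), to 51.6 CPM in hyperoxia male 2, the lung with the highest (1.00%). Over the 12 lungs its log2 CPM had a Pearson r of -0.97 with the log2 share (Spearman rho -0.94, permutation p = 1e-05 for r, the smallest that 100000 permutations can give, adjusted p = 0.0001 over 10 members), and -0.96 without the 2 lungs farthest from the median share. The r values were -0.93 for Egln1, -0.91 for Arnt, -0.90 for Vhl, -0.89 for Epas1 and -0.75 for Bnip3, all with a permutation adjusted p of at most 0.00822. Without the 2 farthest lungs they were -0.98, -0.85, -0.90, -0.86 and -0.54. For Slc2a1 (-0.52), Pdk1 (-0.36) and Ankrd37 (-0.28) the permutation p was 0.0807 or higher, and without those lungs r was -0.18, 0.16 and -0.27. Egln3 had a positive relation to the share, with r = 0.59 (permutation p = 0.0438, adjusted p = 0.0626) and rho = 0.84 (permutation p = 0.00124, adjusted p = 0.00207), and r = 0.49 without the 2 farthest lungs. Both quantities come from the same library, and the relation was common: over the 15722 genes the median r was -0.62, and 0.980% of them had a lower r than Hif1a, 12.6% a lower r than Egln1 and 21.4% a lower r than Epas1. The share also moved with the female groups, at 0.590% ± 0.179 in room air and 0.812% ± 0.0952 after hyperoxia (SD, n = 3), and less with the male groups, at 0.818% ± 0.137 and 0.772% ± 0.228. With the log2 share as a covariate the female Hif1a value went from -0.45 to -0.02, while Arnt, Egln1, Bnip3, Pdk1, Ankrd37 and Epas1 had values of 0.00 to 0.28, and Vhl was at -0.02, Slc2a1 at -0.08 and Egln3 at -0.16. Its part in the member values beyond this was not tested.

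**Figure D4:**
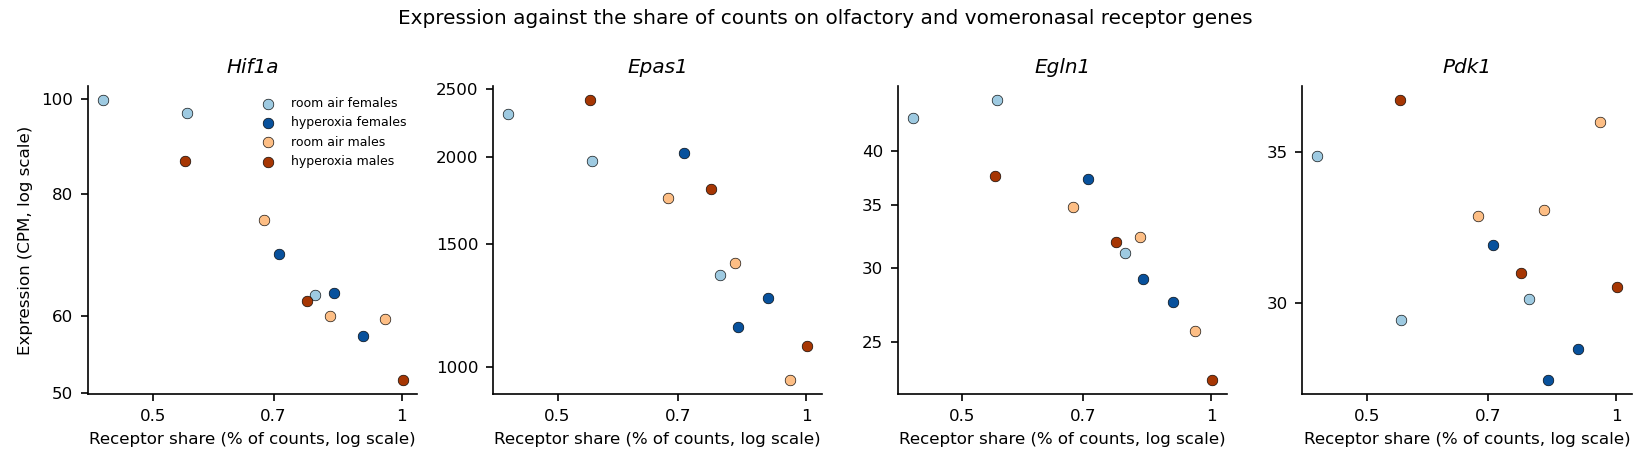
Expression in CPM (vertical axes, log scale) of Hif1a, Epas1, Egln1 and Pdk1 against the share of counts on olfactory and vomeronasal receptor genes (horizontal axes, percent, log scale), 1 point per lung. Hif1a, Epas1 and Egln1 decline along the share (Pearson r -0.97, -0.89 and -0.93 on log2 values), and Pdk1 shows no clear relation (-0.36, permutation p = 0.248, and 0.16 without the 2 farthest lungs).

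The reads that such a background would give were estimated for each gene from the density on the receptor genes and its exon length. They came to 0.403% of the counts of Epas1, 9.85% for Hif1a, 11.3% for Arnt, 12.7% for Egln1, 18% for Bnip3, 19.6% for Slc2a1 and 19.7% for Vhl. The weakest members had the largest part, at 29.2% for Pdk1, 37.9% for Egln3 and 54.4% for Ankrd37. With this background subtracted, the female log2 fold changes of Hif1a, Epas1, Arnt, Egln1 and Bnip3 were -0.28, -0.10, -0.21, -0.21 and -0.03, and those of Vhl and Slc2a1 were -0.13 and -0.12, each smaller than before by over 1.5 times. Those of Ankrd37 and Egln3 grew, to -0.61 and 0.22 in females. Egln3 went to -0.79 in males and to 1.01 for the interaction. None of these values was called. The female value of Epas1 went from -0.35 to -0.10 although only 0.403% of its counts were estimated as background. The female median of the genes of at least 10 CPM also moved, from -0.15 to -0.08. How much of each shift came from a gene's own background reads was not tested.

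The other genes of the pathway were read from a list of 79 genes in 10 classes, from further HIF subunits to glycolytic and vascular targets. All 79 were tested, and 0 of 79 was called in females, in males, over both sexes or for the interaction by edgeR. At an unadjusted p under 0.05 there were 16 in females (15 lower, 1 higher), 5 in males (2 lower, 3 higher) and 14 over both sexes (12 lower, 2 higher), and 7 of 79 for the interaction. Over all genes tested the shares were 12.6%, 2.7%, 5.2% and 8.46%. Of the 15722 genes with at least 10 CPM in 3 lungs, 2800, 354, 1086 and 1336 had such a p in these comparisons. The list's median log2 fold change was -0.27 in females, with 67 of 79 below 0, and 0.01 in males, with 36 of 79 below 0. Among the 15722 genes of at least 10 CPM, 68.3% were below 0 in females (median -0.15) and 41.0% in males (0.03), and among all genes tested 39.0% and 52.0%. Class medians in females ran from -0.41 for coactivators and regulators (5 genes) and -0.34 for vascular targets (13 genes) to 0.07 for HIF subunits (2 genes). Beside these, 6 of 6 endothelial markers (median -0.40) and 7 of 7 lung epithelial markers (median -0.56) had female values below 0, with 0 called. Tek is both one of these endothelial markers and one of the 13 vascular targets. Of the cardiac muscle markers 5 of 6 were below 0 in females (median -0.78), and their summed level was 212 to 236 CPM in room air females and 107 to 136 CPM in hyperoxia females, with no overlap. In females 4 of 4 thymus and T cell markers were above 0 (median 0.38). Of both lists 0 was called. The part of these marker lists in the class medians was not tested. The 19 genes of glucose uptake and glycolysis had medians of -0.20 in females and -0.02 in males. The estimated background in their counts ran from 2.89% for Aldoa to 55.8% for Pgam1, and was 29.0% for Gapdh.

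**Figure D5:**
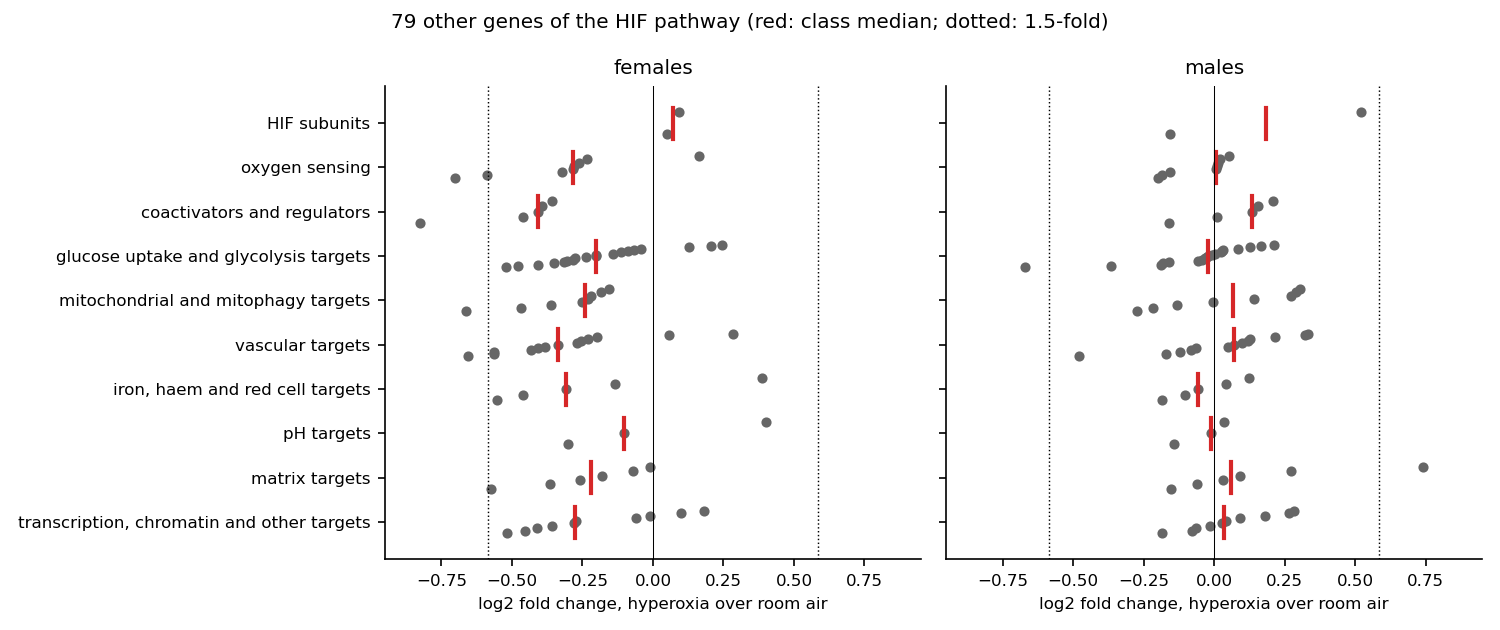
log2 fold change of hyperoxia over room air (horizontal axes) for 79 other HIF pathway genes in females and in males, by class. Points are genes, red lines are class medians and dotted lines mark a 1.5-fold change. In females 67 of 79 genes lie below 0, in males 36 of 79.

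The smallest p in females belonged to Siah2, the ubiquitin ligase that removes prolyl hydroxylases. It lay between 16.1 and 18.4 CPM in room air females and between 9.96 and 12.4 CPM in hyperoxia females, without overlap, as for 17.2% of all genes (log2 -0.70, SE 0.16, edgeR adjusted p = 0.152). An estimated 28.1% of its counts were background. Male lungs of both exposures lay between 9.88 and 12.5 CPM, a log2 difference of 0.01. The female value was called with DESeq2 (log2 -0.80, adjusted p = 0.0140), with 1 RUVr factor (adjusted p = 5.52e-05), with the receptor share as a covariate (log2 -0.71, adjusted p = 0.0458) and from the 6 female lungs alone (adjusted p = 0.0480), fits in which 89, 1898, 21 and 80 of all genes were called. It was not called with background subtracted (log2 -0.87, adjusted p = 0.503), with the 10 CPM filter (log2 -0.45, adjusted p = 0.325), or with TMM or no filter. Nor was it called with the animal number as a block (log2 -0.59, adjusted p = 0.105) or with any lung left out (log2 -0.81 to -0.65, adjusted p from 0.0514 to 0.675). Its interaction of sex and hyperoxia was -0.71 (SE 0.22, adjusted p = 0.578).

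Next came Elob (elongin B, a partner of VHL) and P4ha1 (a collagen prolyl hydroxylase). Elob was 31.2 ± 5.40 CPM in room air females and 20.8 ± 0.342 CPM in hyperoxia females (SD, n = 3), a log2 difference of -0.59 (SE 0.16, edgeR adjusted p = 0.280). P4ha1 was 49.8 ± 8.09 and 33.4 ± 1.24 CPM (log2 -0.58, SE 0.16, adjusted p = 0.290). The female groups did not overlap for either gene, as for 17.2% of all genes. Without room air female 6 both genes were called (adjusted p = 0.0436 for Elob and 0.0499 for P4ha1), among 206 genes in that fit, while the other lungs left out gave adjusted p of up to 0.914. With the receptor share in the model Elob went to -0.27 (adjusted p = 0.857) and P4ha1 to -0.33 (adjusted p = 0.603), and with the 10 CPM filter they were at -0.32 and -0.31. With 1 RUVr factor both passed on the adjusted p (9.05e-06 and 2.03e-06) but not on the fold (-0.57 and -0.56). Over both sexes the lowest p was that of Apln, the endothelial peptide apelin, at -0.57 (SE 0.14, adjusted p = 0.335), with 51.1 ± 7.69 against 32.4 ± 5.05 CPM in females and 38.0 ± 8.45 against 27.1 ± 8.51 CPM in males. Without hyperoxia male 1 its pooled value was called (-0.69, adjusted p = 0.0252), among 37 genes in that fit, and with the other lungs left out the adjusted p reached 1.00. With 1 RUVr factor Apln was called in females (-0.63, adjusted p = 0.000841), and its pooled value (-0.57, adjusted p = 0.000340) passed on the p alone. With the receptor share in the model it was at -0.29 in females (adjusted p = 0.941) and at -0.43 over both sexes (adjusted p = 0.0643). The pooled values of Elob (-0.39) and P4ha1 (-0.36) had adjusted p of 0.695 and 0.793.

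In males the 3 smallest p belonged to Hif3a, Lox and Aldoa, each with an edgeR adjusted p of 1.00. Hif3a, whose product can restrain the other alpha subunits, was 41.1 ± 9.03 CPM in room air and 58.9 ± 5.85 CPM after hyperoxia (SD, n = 3, log2 0.52). The matrix crosslinking enzyme Lox was 89.5 ± 22.5 and 149 ± 56.0 CPM (log2 0.74, and 0.48 without hyperoxia male 1). Aldoa, the glycolytic aldolase of muscle and other tissues, was 150.2 ± 75.7 and 94.2 ± 25.2 CPM (log2 -0.67), and its value was -0.18 without room air male 1, the lung with the muscle markers. Averaged over exposure, the X-linked glycolytic gene Pgk1 was higher in females by 0.46 in log2 (adjusted p = 0.0360) but under the 1.5-fold limit, and it was the only list gene with an adjusted p under 0.05 in the sex comparison. Pgk1 lay at only 8.49 to 15.2 CPM over all lungs, with an estimated 22.1% of its counts from background.

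Some of the members also varied together across lungs. Pearson r of log2 CPM was 0.93 between Hif1a and Egln1, 0.91 between Hif1a and Arnt and 0.91 between Epas1 and Vhl, while Egln3 ran against Epas1 (-0.75) and Bnip3 (-0.74). Every pair with Slc2a1, Pdk1 or Ankrd37 had a weaker r, between -0.33 and 0.58. These values share library depth and receptor share and are descriptions over 12 lungs. Among 15719 genes with at least 10 CPM in at least 3 lungs and a count in every lung, those most like Hif1a were Casd1, Ctnnb1 and Skp1a (r 0.98 to 0.99). Epas1 was followed by Mbd6, Slco2a1 and Cbfa2t3 (0.99 each), Arnt by Ripk2, Senp6 and Tmem131 (all 0.98) and Egln1 by Arhgap45, Serpinb6b and Vasp (0.98 to 0.99). Bnip3 was followed by Pnpla2, Irs2 and Crebrf (0.95 to 0.96) and Vhl by Hdac10, Gm43668 and Tbce (0.96 to 0.97). The likeness was lower for Slc2a1 (Mdp1, Cd22 and Fam219b, 0.86 to 0.87), Pdk1 (Ccdc146, Rab27b and Gys1, 0.85 to 0.89) and Ankrd37 (Slc7a5, Klk8 and Mras, 0.83 to 0.89).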

How the data were processed

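Whole lungs of 12 miR-30a-/- mice were profiled by RNA-Seq. Sex, exposure and animal number came from the sample titles. The authors trimmed reads with Trim Galore, mapped them with STAR to mm10 and deposited raw featureCounts counts per gene, with no normalization. Tool versions and the strand setting are not given in the sources used here. Exon lengths and positions came from GENCODE release M21, which matched 55227 of the 55487 genes, promoters from RefSeq GRCm38.p6.

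One model in edgeR 4.0.16 (limma 3.58.1, R 4.3.3) had a mean for each group, upper-quartile scaling, the filterByExpr filter and robust quasi-likelihood F-tests, with Benjamini-Hochberg adjustment over 45828 genes. Its biological coefficient of variation was 0.177. CPM used the scaled library sizes. Single values were compared by two-sided exact permutation. Depth was 8763033 to 16741694 counts per lung, and SDs are over 3 lungs. No 2 lungs of a group agreed within counting noise (chi-square per gene at least 2.47). The members, the pathway list and the tests were chosen with earlier results of these data known. Genes outside the 10 members were named by rule: list genes called or with the 3 smallest p in females, males and both sexes, and the 3 genes most correlated with each member. Pgk1 was named after its value was seen.

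Alternatives were TMM scaling, DESeq2 1.42.0, no filter, a filter of 10 CPM in 3 lungs, 1 RUVr factor (the number the study used is not given), the log2 receptor share as covariate, background subtraction, only the 6 lungs compared, the animal number as a replicate block in females, the adjusted p alone and each lung left out. Analysis and figures used scipy 1.17.1, numpy 2.4.6, pandas 2.3.3 and matplotlib 3.10.9 in Python 3.11.15.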

Additional observations from a re-analysis of the deposited data

Results flagged for a closer look

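The Egln3 level of room air male 1, at 16.6 CPM, stood apart from the other 5 room air lungs by Dixon's test at the 95% level, with a gap to the nearest lung of 0.832 of the whole range. Each member was examined in the 6 room air and the 6 hyperoxia lungs, 20 groups in all, and chance would pick out about 1 in 20. This lung also held 1900 CPM of skeletal muscle markers, and the part of muscle in its Egln3 level was not tested.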

How the results depend on the processing

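No member was called under any alternative in females, males or both sexes. Of 1011 values of members and named genes under the alternatives, 936 kept their direction and stayed uncalled. A call needs both limits, so the 936 include values whose adjusted p fell under 0.05 without a call, as with RUVr. They also include 49 values from the setting of the adjusted p alone, which reuses the main fit. Fits without a lung of the other sex count too, and these left the female Hif1a value at -0.45. Genes called in females numbered 1, and 0 with TMM, the 10 CPM filter or background subtraction, 8 with no filter, 89 with DESeq2, 1898 with 1 RUVr factor, 21 with the receptor share covariate, 80 from the 6 lungs alone and 0 to 206 with a lung left out. Male calls, 0, became 16 with RUVr, 6 with the covariate, 2 from the 6 lungs and 0 to 1 with a lung left out. Pooled calls, 19, became 40 with DESeq2, 0 with the 10 CPM filter, 92 with RUVr, 9 with background subtracted and 3 to 37 with a lung left out. RUVr gave 2102 interaction calls, among them 1 member (Epas1) and 4 list genes. Sex calls, 559, became 1004 with no filter, 39 with the 10 CPM filter, 1006 with RUVr and 976 with the covariate. List genes called in females were 2 with DESeq2, 4 with RUVr, 1 with the covariate, 1 from the 6 lungs, 1 with the block and 0 to 2 with a lung left out, pooled 0 to 1 with a lung left out, and 1 for sex by the adjusted p alone. The causes of these changes were not tested.

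With the replicate block, animals 2 and 5 of the female groups, 451 genes and 0 members were called and Elob was called at -0.68 (adjusted p = 0.0320). The deviations of the same-numbered lungs correlated at 0.23 and -0.34, so the lungs share only a number, and males share only number 1.

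Signs of uncalled log2 values reversed as follows. The covariate gave in females Epas1 0.28, Arnt 0.00079, Egln1 0.036, Egln3 -0.16, Bnip3 0.15, Pdk1 0.014 and Ankrd37 0.070, in males Hif1a -0.079, pooled Arnt 0.0082 and Vhl 0.033, and for the interaction Hif1a 0.056, Epas1 0.099, Egln1 0.14, Pdk1 0.096 and Ankrd37 0.19. The 10 CPM filter, which dropped Egln3 and Ankrd37, gave in females Vhl 0.036, Slc2a1 0.050, Bnip3 0.11 and Pdk1 0.15, in males Hif1a -0.011, pooled Vhl 0.066, Slc2a1 0.0028 and Pdk1 0.028, and for the interaction Slc2a1 0.094 and Pdk1 0.25. Background subtraction gave Hif1a -0.032 in males, Vhl 0.0011 pooled and Pdk1 0.022 for the interaction. Egln1 in males was 0.0056 with TMM, 0.011 with no filter and 0.021 with DESeq2, Slc2a1 in males 0.0036 with DESeq2, and Epas1 pooled -0.0059 with TMM, -0.0086 with no filter, -0.010 with RUVr and -0.032 with DESeq2. With a lung left out, female values ran from -0.64 to -0.34 for Hif1a, -0.49 to -0.27 for Arnt, -0.51 to -0.25 for Egln1, 0.056 to 0.27 for Egln3, -0.29 to -0.17 for Vhl, -0.29 to -0.088 for Slc2a1, -0.26 to -0.0087 for Bnip3, -0.17 to -0.018 for Pdk1 and -0.22 to -0.046 for Ankrd37, and male Bnip3 from 0.24 (without hyperoxia male 1) to 0.53 and male Vhl from 0.026 (without hyperoxia male 1) to 0.25 (without room air male 4). Pooled values ran from -0.25 to -0.0023 for Arnt, -0.26 to -0.088 for Egln1, -0.15 to -0.050 for Slc2a1, -0.12 to -0.032 for Pdk1 and -0.14 to -0.033 for Ankrd37. Male values ran from -0.19 to 0.20 for Hif1a, -0.13 to 0.37 for Arnt, -0.17 to 0.18 for Egln1, -0.066 to 0.050 for Slc2a1, -0.14 to 0.0087 for Pdk1 and -0.17 to 0.050 for Ankrd37, pooled values from -0.14 to 0.14 for Epas1, -0.25 to 0.062 for Egln3 and -0.096 to 0.016 for Vhl, and interactions from -0.12 to 0.041 for Pdk1 and -0.16 to 0.055 for Ankrd37.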
